A study of Rattus norvegicus with 19 samples.

Results

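Caseins and whey proteins are the main proteins that the mammary epithelium secretes into milk. Their genes were compared here between mammary carcinomas and normal mammary glands of the rat. The set held 8 genes: Csn1s1, Csn2, Csn1s2a, Csn1s2b and Csn3, which encode caseins, Wap and Lalba, which encode whey proteins, and Glycam1, which encodes a small secreted mucin. They were chosen by name, and an array probe was assigned to a gene where its annotated RefSeq accession belonged to that gene. Each was measured by 1 probe, and all 8 were among the 12789 genes that passed a filter on dim probes. The samples were 13 mammary carcinomas, labelled as induced by radiation, and 6 normal mammary glands. All came from female F1 hybrids of Sprague-Dawley and Copenhagen rats, and each was hybridised to 1 single-colour (Cy3) array. The treatment protocol, given alike for all samples, covers rats left untreated and rats exposed to caesium-137 gamma rays over the whole body (4 Gy at 0.5 Gy/min, age 7 weeks). Which normal glands came from irradiated rats is not labelled, nor is the age or reproductive state at sampling.

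Casein proteins are packed in milk as micelles held together by calcium phosphate. The products of Csn1s1, Csn2, Csn1s2a and Csn1s2b are calcium-sensitive caseins, and kappa-casein, the product of Csn3, coats and stabilises the micelle. Transcription of these genes in the secretory epithelium is driven mainly by prolactin, whose receptor acts through the kinase Jak2 and the transcription factor Stat5, together with glucocorticoids, and it climbs through pregnancy into lactation. Glycam1 has a second known source, the high endothelial venules of lymph nodes.

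The carcinomas differed widely from one another in milk protein expression. Carcinoma 7 held all 8 genes within or above the range of the normal glands, carcinoma 5 was the lowest sample for all 8, and the others lay between. Averaged over the 13 carcinomas, Glycam1 was 107.4-fold lower, Wap 49.4-fold lower and Csn1s2b 30.8-fold lower than in the 6 normal glands, and these 3 passed the limma test at an adjusted p of 0.05 (Benjamini-Hochberg over all genes). The other 5 had means 5.67- to 37.4-fold lower and did not pass. Thus 3 of 8 genes were lower, 0 were higher and 5 did not pass, while 13.2% of all genes tested were lower and 9.73% were higher. The median log2 change was -5.05 over the 8 genes and 0.01 over all genes. Fewer secretory cells and less RNA per cell cannot be told apart in such bulk samples.

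The count depended on single samples and on the background correction. It was 5 without carcinoma 7, with Csn1s1 and Lalba added, and 1 without normal gland 2, with Csn1s2b left. It was 5 without carcinomas 5 and 8, which were left out after their values were seen, with Csn1s1 and Csn3 added. With normexp background correction it was 7, all but Csn3, while 41.2% of all genes were lower. Each of the 3 slides held both groups, and within slides 1, 2 and 3 the median change of the 8 genes was -7.15, -2.38 and -2.83, in fits of 4 carcinomas and 3 glands, 4 and 2, and 5 and 1. In these small fits 0 of the 8 genes passed as lower, and only 4.18%, 2.09% and 0.243% of all genes did, so the counts of 0 say little about the 8 genes. With 1 gland on slide 3, that gland is assumed to vary as the carcinomas do. The 75th percentile of the array, to which values were scaled, was 485 to 1428 intensity units in carcinomas and 295.5 to 673 in normal glands. Carcinoma 7 had the lowest of the carcinomas (485), and its share of spots well above background (62.3%) was the lowest of all arrays. Scaling thus raised its values more than those of the other carcinomas. Before scaling, its Csn2 probe read 265370 units against 494688 in carcinoma 11, while its Wap probe read 150635 against 30019. No spot was saturated. Whether each sample came from its own animal is not labelled, so the p-values measure the spread between these samples, which may be technical in part.

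**Figure D1:**
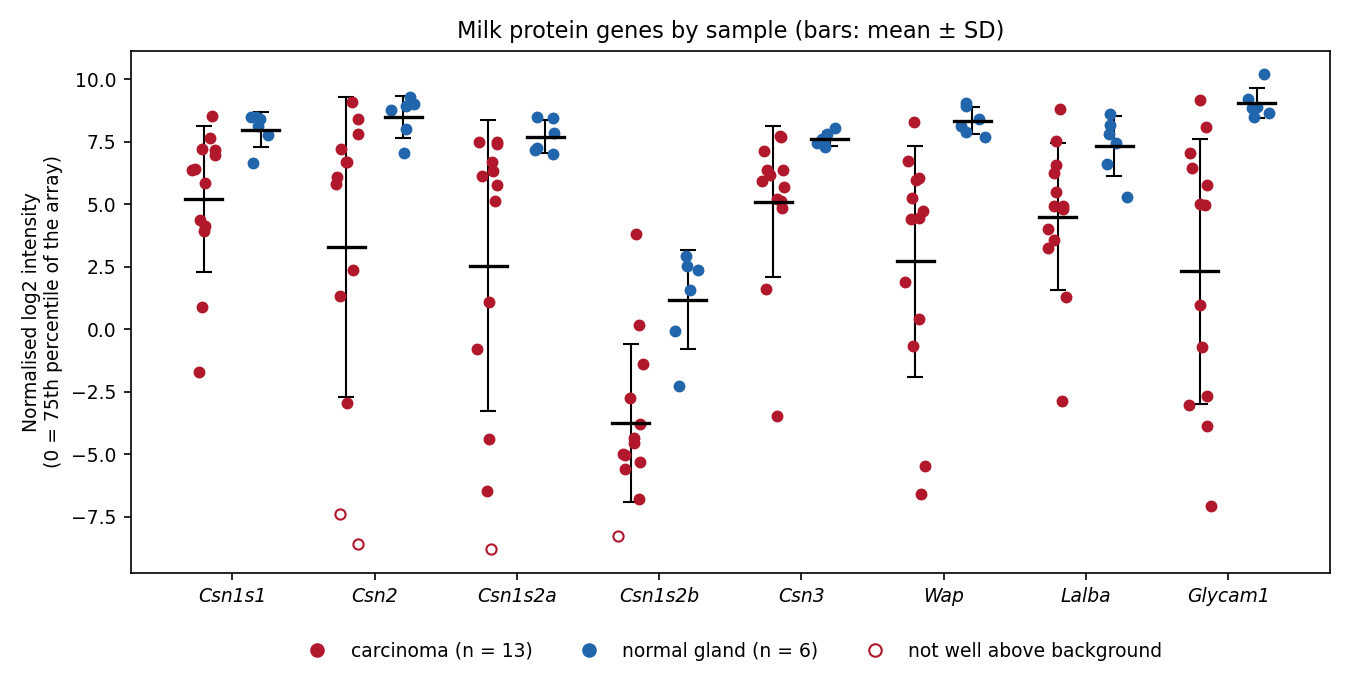
Normalised log2 intensity (vertical axis, 0 at the 75th percentile of the array) of the 8 genes (horizontal axis) in 13 carcinomas (red) and 6 normal glands (blue). Bars give the mean ± SD and open circles mark probes not well above background. Carcinomas spread far below the glands for every gene, and 1 or more carcinomas reach the glands' range for each.

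Promoter sequences are shown because the calcium-sensitive caseins carry a Stat5 motif at nearly the same place. The part of this motif in their levels, which are described below, was not tested. The windows searched ran from 250 bases before to 50 bases after each gene start (RefSeq, GRCr8), and all 8 genes were matched by symbol. The Stat5 motif TTCNNNGAA, searched on both strands, occurred in 5 of 8 genes and in 8.87% of 33469 windows of this length. In Csn1s1, Csn2, Csn1s2a and Csn1s2b it began 97 to 102 bases before the start, a placement found in 0.161% of all windows. This span was set from the matches of these same genes, which are among the windows counted, so the share is a description and no test. The nuclear factor I motif TTGGCA, also searched on both strands, occurred in Lalba, Csn3 and Glycam1 and in 14% of all windows, and in Csn3 its match lay after the start. Neither motif had a match in the Wap window, and no match of one overlapped a match of the other. Each stretch below has 100 bases, 5′ to 3′ on the strand of the gene, with either motif in capitals (TGCCAA is the second motif read on the other strand). They begin at base -150 counted from the start, or at -220 for Glycam1. A match describes the letters only and is no evidence of binding.
Csn1s1 (chr14:20638900-20638999, minus strand): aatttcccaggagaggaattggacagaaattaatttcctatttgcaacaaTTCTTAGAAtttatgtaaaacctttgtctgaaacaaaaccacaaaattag
Csn2 (chr14:20601674-20601773, plus strand): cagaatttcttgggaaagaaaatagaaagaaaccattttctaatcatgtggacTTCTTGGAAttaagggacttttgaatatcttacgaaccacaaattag
Csn1s2a (chr14:20574522-20574621, minus strand): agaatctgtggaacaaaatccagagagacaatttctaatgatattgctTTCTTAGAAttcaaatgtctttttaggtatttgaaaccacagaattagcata
Csn1s2b (chr14:20545669-20545768, minus strand): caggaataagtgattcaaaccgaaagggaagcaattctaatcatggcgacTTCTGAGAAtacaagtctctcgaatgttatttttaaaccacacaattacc
Csn3 (chr14:20439881-20439980, minus strand): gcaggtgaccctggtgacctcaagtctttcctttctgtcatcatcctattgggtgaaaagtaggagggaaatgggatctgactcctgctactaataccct
Lalba (chr7:131507123-131507222, minus strand): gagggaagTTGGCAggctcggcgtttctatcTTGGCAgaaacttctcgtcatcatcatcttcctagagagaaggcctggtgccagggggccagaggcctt
Glycam1 (chr7:136561420-136561519, minus strand): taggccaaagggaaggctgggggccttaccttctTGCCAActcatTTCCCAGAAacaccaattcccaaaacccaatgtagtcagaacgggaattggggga

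Values below are log2 intensities relative to the 75th percentile of the array. Probes differ in brightness, so levels were compared between samples and not between genes. Csn2 encodes beta-casein. Its values ranged from -8.59 to 9.10 with a median of 6.10 in carcinomas, and from 7.05 to 9.28 with a median of 8.85 in normal glands. The groups overlapped: carcinomas 3 (7.23), 6 (7.82), 11 (8.44) and 7 (9.10) lay in the normal range and 9 lay below it. In carcinomas 1 (-7.38) and 5 (-8.59) the probe was not well above background. Csn2 averaged 3.28 ± 6.00 in carcinomas and 8.51 ± 0.83 in normal glands (SD, n = 13 and 6). The log2 change of -5.23 ± 2.27 (SE) did not pass (limma adjusted p = 0.101).

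Csn1s1, the alpha-S1-casein gene, is the neighbour of Csn2 on chromosome 14. It ranged from -1.73 to 8.53 with a median of 6.37 in carcinomas, and from 6.64 to 8.49 with a median of 8.27 in normal glands. It was well above background in all 13 carcinomas. Carcinomas 2 (6.96), 4 (7.19), 6 (7.21) and 11 (7.65) were in the normal range, carcinoma 7 (8.53) was above it and 8 were below, a count that became 12 without normal gland 6, the lowest gland. The means were 5.21 ± 2.91 in carcinomas and 7.99 ± 0.71 in normal glands (SD, n = 13 and 6). The change of -2.78 ± 1.11 (SE) did not pass (limma adjusted p = 0.0760).

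These neighbouring genes separated in 5 carcinomas. The difference Csn2 minus Csn1s1 within an array, set relative to its median in normal glands, was -11.84 in carcinoma 1, -7.39 in carcinoma 5, -5.13 in carcinoma 2, -4.37 in carcinoma 8 and -3.32 in carcinoma 9. In the other 8 carcinomas it was -1.01 to 0.91, and in normal glands -0.32 to 0.28. Carcinoma 1 showed the separation most plainly. Before scaling to the array, the Csn1s1 probe read 17231 intensity units there, against 46021 to 168179 in normal glands. The Csn2 probe read 6.77 units there, not well above background, against 61167 to 271906 in normal glands. After scaling, carcinoma 1 was below every gland for both genes. It was 20.2-fold below the normal gland median for Csn1s1 and 76979-fold below it for Csn2. Both promoters have the Stat5 motif printed above, 97 bases before the start in Csn2 and 100 bases before it in Csn1s1. Its part in this separation was not tested.

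Csn1s2a encodes an alpha-S2-like casein, known in rodents as gamma-casein. Its range was -8.80 to 7.51 with a median of 5.76 in carcinomas, and 7.01 to 8.50 with a median of 7.55 in normal glands. Carcinomas 5 (-8.80), 1 (-6.49), 8 (-4.38) and 2 (-0.80) were lowest, the first of them not well above background, while carcinomas 7 (7.43), 12 (7.48) and 11 (7.51) were in the normal range. The change was -5.16 ± 2.19 (SE; limma adjusted p = 0.0943) and did not pass, though it did with slide as a block (-6.03). Csn1s2a thus stood with Csn2 in being far below the glands in carcinomas 1 and 2. Csn1s1 was at 3.93 in carcinoma 1, also below every gland, and at 6.96 in carcinoma 2, within their range.

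Csn1s2b, known as delta-casein in rodents, was the only casein that passed as lower. The mean changes of Csn2 (-5.23) and Csn1s2a (-5.16) were slightly larger. Their SDs in carcinomas were larger too, 6.00 and 5.82 against 3.15. Csn1s2b ranged from -8.27 to 3.82 with a median of -4.54 in carcinomas, and from -2.26 to 2.95 with a median of 1.98 in normal glands. The change was -4.94 ± 1.28 (SE; limma adjusted p = 0.00969), and it passed in each fit that left out 1 sample. The groups overlapped, since carcinomas 13 (-1.38), 12 (0.18) and 7 (3.82) lay above normal gland 1 (-2.26), and the other 10 lay below every gland. Carcinoma 11 had Csn1s1, Csn2, Csn1s2a and Csn3 within 0.61 log2 units of the normal gland median, but Csn1s2b 91.8-fold below it. Csn1s2b was more than 10-fold below that median in 11 carcinomas, and 2 to 5 carcinomas were for each of the other caseins. Normal gland 1 was itself 18.9-fold below the Csn1s2b median, and the glands spanned 5.20 log2 units for Csn1s2b against 0.79 to 2.23 for the other caseins.

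Csn3, the kappa-casein gene, had the narrowest range of the 8 genes in normal glands. Its values ranged from -3.49 to 7.72 with a median of 5.95 in carcinomas, and from 7.28 to 8.07 with a median of 7.55 in normal glands. Carcinomas 7 (7.72) and 11 (7.69) overlapped the glands and the other 11 lay below them, a count that was 8 to 11 over 3 alternatives of processing. Of these 11 carcinomas, only carcinomas 5 (-3.49) and 8 (1.59) were more than 10-fold below the normal gland median. The rest were 1.34-fold (carcinoma 12) to 6.55-fold (carcinoma 9) below it. The change of -2.50 ± 1.14 (SE) did not pass (limma adjusted p = 0.120), and it passed without carcinoma 5 (-1.79).

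**Figure D2:**
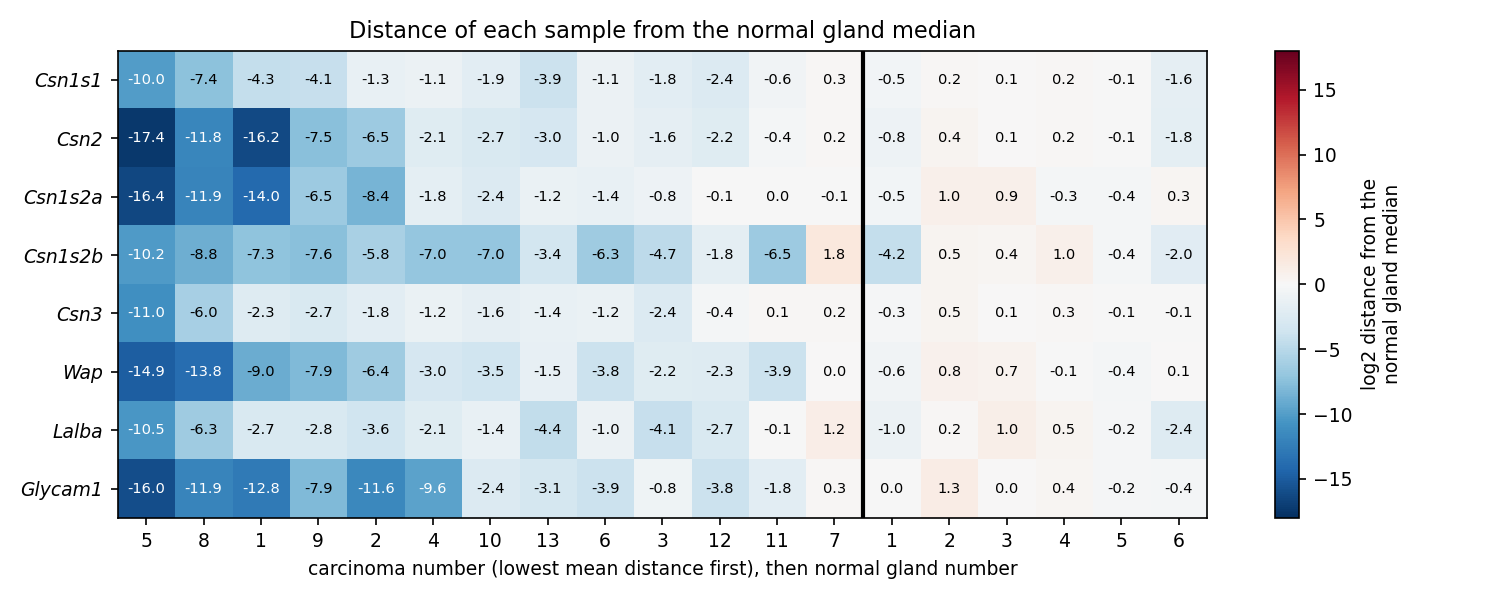
Log2 distance of each sample from the normal gland median (colour and printed value) for the 8 genes (rows) in 13 carcinomas, ordered by their mean distance, and 6 normal glands (columns, right of the line). Carcinomas 5 and 8 are low in every row, carcinomas 1, 9 and 2 are low mainly in Csn2, Csn1s2a, Csn1s2b, Wap and Glycam1, and carcinoma 7 lies within 1.84 of the median in all rows.

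Of the whey protein genes, Wap encodes whey acidic protein, a major whey protein of rodents, and it fell. It ranged from -6.61 to 8.28 with a median of 4.45 in carcinomas, and from 7.68 to 9.06 with a median of 8.27 in normal glands. Only carcinoma 7 (8.28) reached the glands, and the other 12 lay below all of them. The mean was 2.72 ± 4.63 in carcinomas and 8.35 ± 0.55 in normal glands (SD, n = 13 and 6), a change of -5.63 ± 1.75 (SE; limma adjusted p = 0.0251). Wap did not pass without normal gland 2 or without normal gland 3, and over the 19 fits that left out 1 sample its limma adjusted p was 0.0131 to 0.0599.

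Lalba encodes alpha-lactalbumin, the regulatory subunit of the lactose synthase enzyme. It ranged from -2.88 to 8.83 with a median of 4.92 in carcinomas, and from 5.28 to 8.64 with a median of 7.63 in normal glands. Carcinomas 4 (5.49), 10 (6.25), 6 (6.59) and 11 (7.55) were in the normal range, carcinoma 7 (8.83) was above it and 8 were below, a count that became 11 without normal gland 6. The change of -2.82 ± 1.15 (SE) did not pass (limma adjusted p = 0.0812).

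The whey protein genes also separated within single tumours. Wap minus Lalba within an array, relative to the normal gland median, was -7.54 in carcinoma 8, -6.36 in carcinoma 1 and -5.19 in carcinoma 9. It was also negative in carcinomas 5 (-4.48), 11 (-3.91), 2 (-2.90), 6 (-2.89), 10 (-2.27), 7 (-1.30) and 4 (-0.98). It was positive only in carcinomas 13 (2.72), 3 (1.74) and 12 (0.29). In normal glands this difference was -0.79 to 2.37. All the negative carcinoma values lay below that range, carcinomas 3 and 12 lay within it and carcinoma 13 lay above it.

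Glycam1 encodes a mucin-like glycoprotein of the milk fat globule and whey that also serves as an L-selectin ligand on lymph node venules, and it fell. It ranged from -7.08 to 9.16 with a median of 4.98 in carcinomas, and from 8.49 to 10.20 with a median of 8.88 in normal glands. Carcinoma 7 (9.16) overlapped the glands and the other 12 lay below all of them. The mean was 2.31 ± 5.30 in carcinomas and 9.06 ± 0.61 in normal glands (SD, n = 13 and 6), a change of -6.75 ± 2.00 (SE; limma adjusted p = 0.0199). It did not pass without normal gland 2, and over the 19 fits that left out 1 sample its limma adjusted p was 0.00928 to 0.0515. Carcinoma 4 set Glycam1 (-0.71) apart from Csn1s1, Csn2, Csn1s2a and Csn3, which were at 7.19, 6.71, 5.76 and 6.38. The casein gene Csn1s2b was low there as well, 130-fold below its normal gland median, against 771-fold for Glycam1.

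Markers of lymph node stroma and B cells moved with Glycam1 between the groups. Of 11 listed, 7 were tested, and 5 of these fell and 0 rose, with a median change of -2.62. Among all genes tested, 13.2% were lower and 9.73% higher. The stromal chemokine gene Ccl21 changed by -6.19 ± 0.71, Ccl19 by -5.79 ± 0.69 and Cxcl13 by -3.81 ± 1.08 (SE). The mean level of the 7 genes was -3.26 to 0.24 in carcinomas and 1.55 to 4.23 in normal glands. Of venule genes, the addressin gene Madcam1 did not pass (-1.29 ± 0.48, limma adjusted p = 0.0575), and the sulfotransferase gene Chst4 was well above background in 0 carcinomas and 0 normal glands. Among carcinomas, the levels of Ccl21 and Glycam1 stood side by side in no single order. Carcinoma 1 had the highest Ccl21 (-0.17) with Glycam1 at -3.89, and carcinoma 11 the lowest Ccl21 (-6.29) with Glycam1 at 7.05. Carcinomas 3 and 10 were high in both, with Ccl21 at -1.43 and -2.28 and Glycam1 at 8.08 and 6.45, and carcinoma 5 was low in both (-5.17 and -7.08). The part of lymph node tissue in the difference between carcinomas and glands was not tested.

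**Figure D3:**
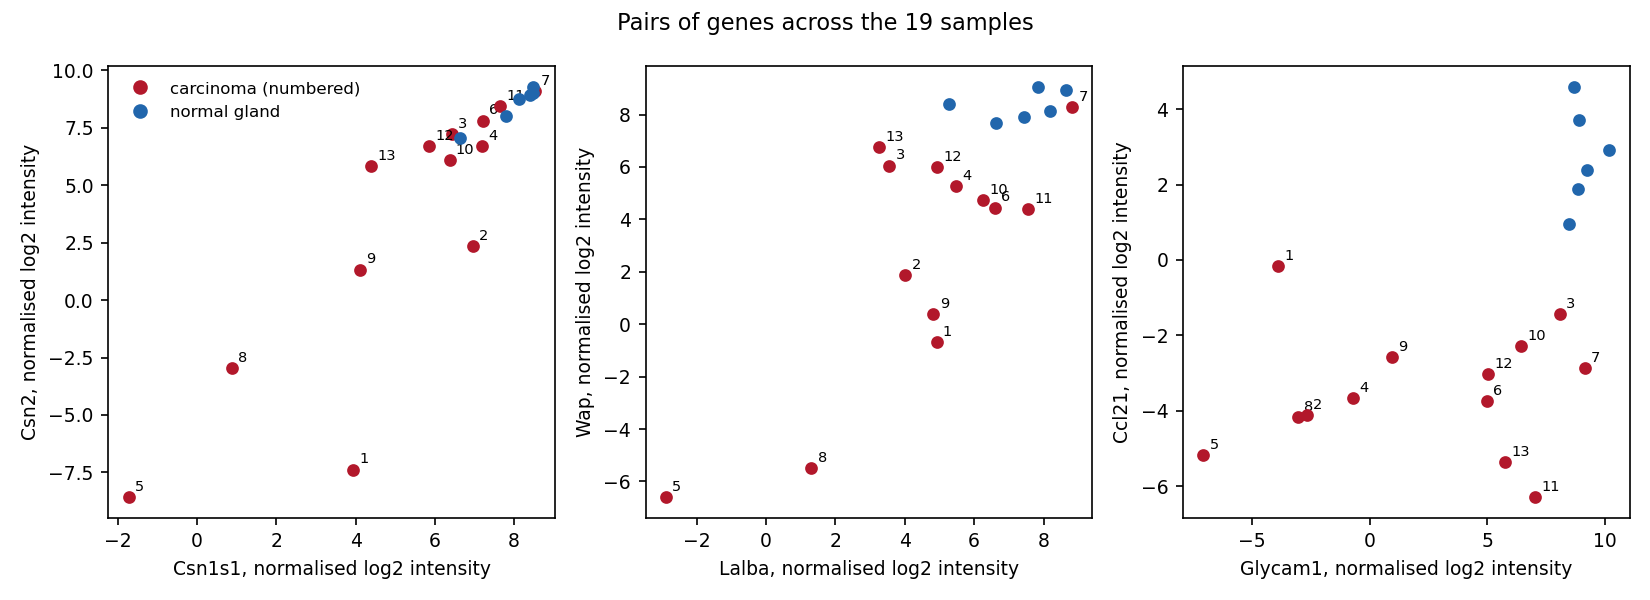
Normalised log2 intensity of Csn2 against Csn1s1, Wap against Lalba and Ccl21 against Glycam1 in 13 carcinomas (red, numbered) and 6 normal glands (blue). Carcinoma 1 has Csn1s1 at 3.93, below every gland, with Csn2 at -7.38, and Ccl21 lies below every gland in all 13 carcinomas.

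Spread among carcinomas was compared with that among glands by a limma test on absolute deviations from the group mean. Glycam1 alone of the 8 genes passed, with deviations larger by 4.38 ± 0.86 (SE; limma adjusted p = 0.0341), while 0.086% of all genes had a larger and 0.188% a smaller spread in carcinomas. Csn1s2a (4.53 ± 1.09, limma adjusted p = 0.0820), Csn2 (4.35 ± 1.29, 0.153) and Wap (3.38 ± 1.02, 0.162) had differences of like size and did not pass. For Csn1s2b the difference was 0.68 ± 0.87, and its SD was 3.15 in carcinomas and 1.99 in normal glands. The SD of each gene in carcinomas was above that of at least 99.5% of all genes. The Glycam1 call was lost without carcinomas 5 and 8, and without any 1 of carcinomas 1, 2 and 8 or normal glands 3 and 5.

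Ordered by the mean log2 distance of the 8 genes from the normal gland median, the carcinomas ran from carcinoma 5 (-13.30), through 8 (-9.73), 1 (-8.58), 9 (-5.88), 2 (-5.67), 4 (-3.49), 10 (-2.87), 13 (-2.73), 6 (-2.47), 3 (-2.32), 12 (-1.96) and 11 (-1.65), to carcinoma 7 (0.49). Each carcinoma is 1 array, so neighbours in this order have no error of their own, and the differences between carcinomas 10, 13, 6 and 3 are smaller than the range of the 6 glands, -0.995 to 0.62. Carcinomas 5, 1 and 2 were on slide 1, 9 on slide 2 and 8 on slide 3. The 3 carcinomas whose sample codes hold a letter in place of a number, 11, 12 and 13, lay between -2.73 and -1.65, and the part of this code, which the labels do not explain, was not tested within carcinomas. For no gene of the 8 did all 13 carcinomas lie below all 6 glands, which was so for 1.93% of all genes.

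Counts of genes below the lowest normal gland followed this order loosely. All 8 were below it in carcinomas 5, 8, 1 and 9, where 24.7%, 19.9%, 19.2% and 25.6% of all genes were. The count was 7 in carcinomas 2, 10, 13 and 3, where the share of all genes was 21.9%, 18.3%, 34.1% and 28.3%. It was 6 in carcinomas 4 and 12 (20.4% and 27.3% of all genes), 5 in carcinoma 6 (22.4%), 3 in carcinoma 11 (31.4%) and 0 in carcinoma 7 (21.1%). Carcinomas 11 and 7 were thus nearest to the glands.

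A distance of more than 10-fold below the normal gland median separated the carcinomas more clearly. It was passed by 8 genes in carcinoma 5, against 2.23% of all genes there, and by 8 genes in carcinoma 8 (1.38%). In carcinomas 1, 9 and 2 it was passed by 6 genes each, against 1.29%, 2.03% and 1.35% of all genes. Carcinomas 13 (2.07% of all genes) and 6 (1.85%) had 3 such genes, and carcinomas 4 (1.65%), 10 (1.11%), 3 (1.34%) and 11 (2.51%) had 2. Carcinoma 12 had 1 (1.08%) and carcinoma 7 had 0 (2.01%).

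Ordered by how many carcinomas stood more than 100-fold below the normal gland median, Glycam1 and Csn1s2b had 6 each, Csn1s2a, Csn2 and Wap had 4 each, Csn1s1 had 2, and Csn3 and Lalba had 1 each. Carcinomas 1, 9 and 2 showed this split within single tumours. Over Csn1s1, Csn3 and Lalba their mean distances were -3.12, -3.22 and -2.25, and over Csn2, Csn1s2a, Wap and Glycam1 they were -13.00, -7.45 and -8.20. This grouping was made after the values were seen and was not tested. In carcinomas 13 and 3 the order was the other way, with -3.20 and -2.78 over the first 3 genes and -2.22 and -1.37 over the other 4.

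The casein genes lie together on chromosome 14, with unrelated or distantly related genes among them. In the RefSeq gene table, 13 protein-coding genes span the cluster with 2 genes on each side, and 8 of these are not caseins. Of the 8, 3 had a probe and 1 was tested. That gene, Odam, which encodes an ameloblast-associated protein, changed by 0.87 ± 0.87 (SE) and did not pass (limma adjusted p = 0.513), being well above background in 10 carcinomas and 2 normal glands. Fdcsp, a secreted peptide gene, was well above background in 3 carcinomas and 0 normal glands, and Cabs1 in 0 of either. LOC134481833, Prr27, Stath, Rpl30-ps7 and Sult1e1 had no probe here.

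Other milk genes were followed in 3 lists. As 13.2% of all genes tested were lower and 9.73% higher, the small counts below say little about the lists. Of 9 milk fat globule genes 8 were tested and 2 fell, the fatty acid transporter gene Cd36 (-4.47 ± 0.85, SE) and Cidea (-3.23 ± 0.98), which encodes a lipid droplet protein, with a list median of -2.0. Both also have high levels in fat cells. Of 10 lactose and transport genes 1 rose, the glucose transporter gene Slc2a1 (1.31 ± 0.42), and 1 fell, the folate receptor gene Folr1 (-3.0 ± 0.64), with a median of -0.85. Of 10 milk defence genes 7 were tested and 2 fell, the protease inhibitor gene Slpi (-2.26 ± 0.75) and the lysozyme gene Lyz2 (-1.79 ± 0.45), which macrophages also express. Their median was -1.79.

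Of 13 genes listed and tested for the prolactin and Stat5 pathway, 1 fell, 0 rose, and the median was -0.16, while 13.2% of all genes were lower and 9.73% higher. The list also holds genes outside prolactin signalling itself, such as the glucocorticoid receptor gene Nr3c1. The gene that fell was the growth hormone receptor gene Ghr (-3.49 ± 0.44, SE). The part of fat cells, whose markers also fell as given below, in the Ghr change was not tested. The prolactin receptor gene Prlr (1.18 ± 0.59), Stat5a (-0.50 ± 0.43), Stat5b (-0.25 ± 0.32) and Elf5 (-1.97 ± 0.93), an epithelial transcription factor of secretory differentiation, did not pass (limma adjusted p 0.133 to 0.609). Elf5 was lowest in the carcinomas with the lowest milk protein levels, -4.70 in carcinoma 5 and -1.66 in carcinoma 8, against 3.11 to 4.32 in normal glands. Stat5a was 1.41 in carcinoma 5, 1.6 in carcinoma 2, 2.24 in carcinoma 8 and 2.33 in carcinoma 9, against 3.04 to 4.29 in normal glands. These 4 were below every gland, as were carcinomas 13 (1.96) and 10 (2.77), whose milk protein levels were nearer to the glands. Carcinoma 1, where Csn2 was not well above background, had Stat5a at 4.02, within the normal range, and Elf5 at 2.83, below it.

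**Figure D4:**
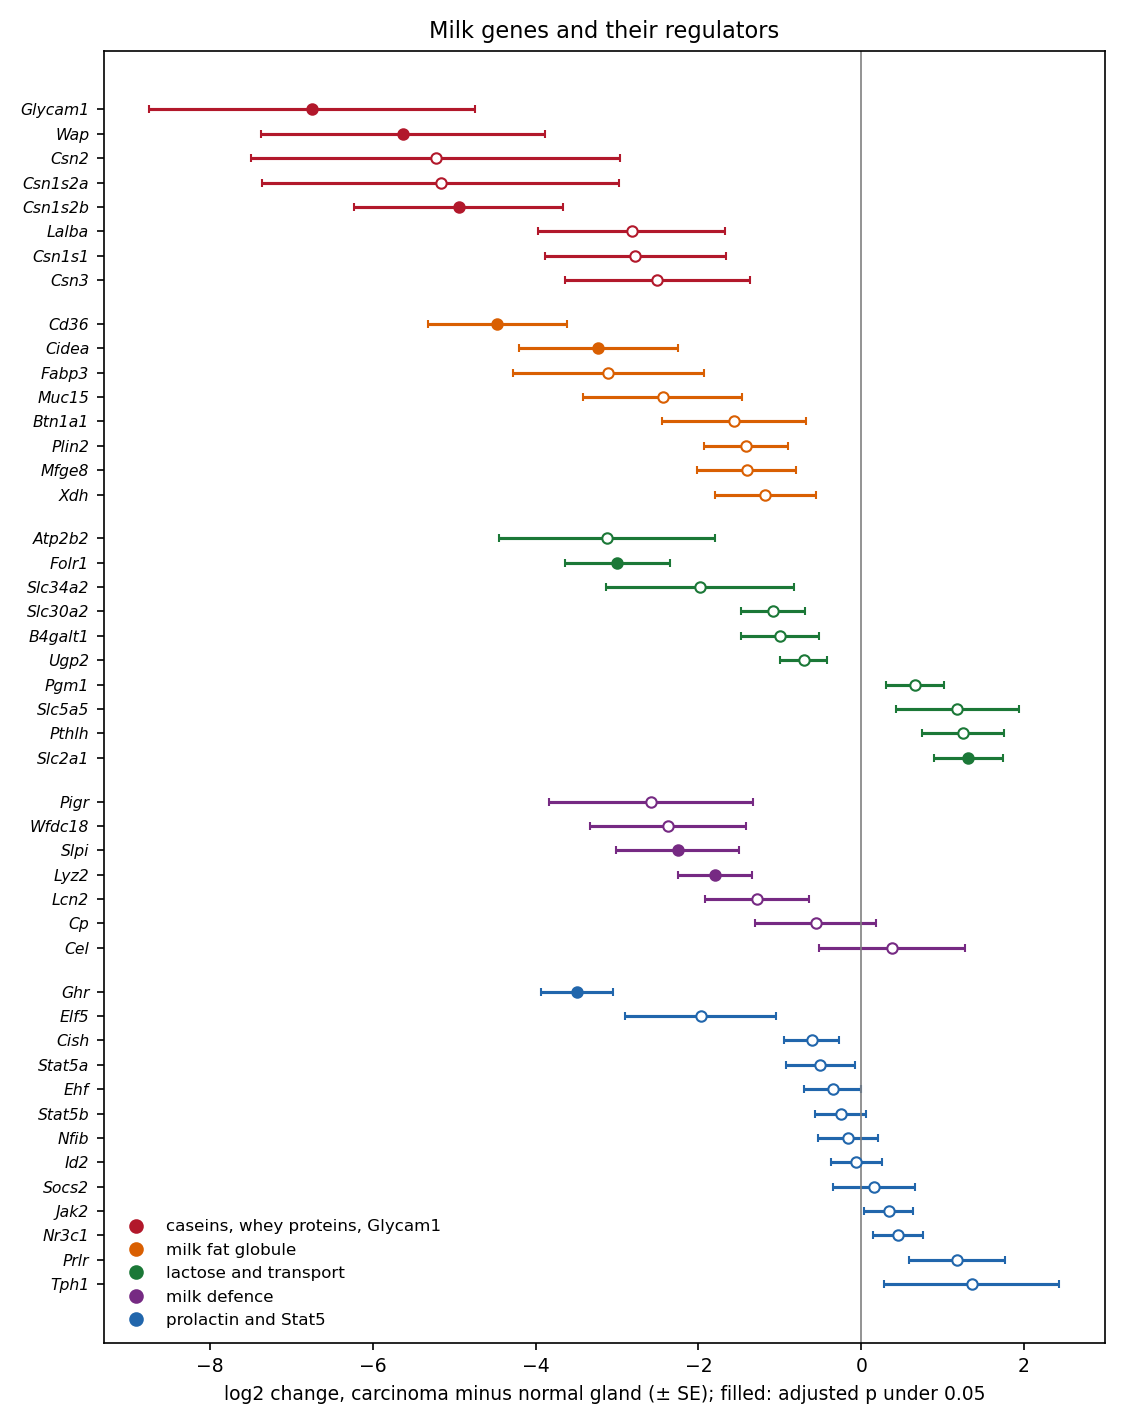
Log2 change, carcinoma minus normal gland, with its SE (horizontal axis) for the 8 caseins, whey proteins and Glycam1 and for 4 further lists of milk and prolactin pathway genes (rows). Filled points passed the limma test. Glycam1, Wap, Csn2, Csn1s2a and Csn1s2b lie farthest below 0, between -6.75 and -4.94, and Stat5a and Stat5b lie at -0.50 and -0.25.

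Markers of some cell types differed between carcinomas and glands. The counts below stand beside 13.2% of all genes tested that were lower and 9.73% that were higher. All 9 adipocyte genes tested of 10 fell, by most for Adipoq (-10.26 ± 0.67, SE), Retn (-8.55 ± 0.41) and Fabp4 (-7.71 ± 0.58), with mean levels of -2.81 to -1.01 in carcinomas and 3.31 to 4.75 in normal glands, and 7 of 10 macrophage genes fell, by most for Spp1 (-3.33 ± 0.84), Cd163 (-3.20 ± 0.50) and Mrc1 (-1.82 ± 0.47). Of 14 luminal epithelial genes 4 rose, by most for Gata3 (1.6 ± 0.47), Prom1 (1.43 ± 0.43) and Cdh1 (1.18 ± 0.21), and 0 fell, with means of -0.91 to 0.68 in carcinomas and -1.16 to 0.03 in normal glands. Of 10 basal genes 1 rose, Lamb3 (1.35 ± 0.39), and 0 fell, with means of -3.12 to 1.28 in carcinomas and -0.81 to -0.04 in normal glands. The luminal mean was above every gland in 10 of 13 carcinomas, among them carcinomas 5, 8 and 1 (0.15, 0.48 and 0.67), which had the lowest milk protein levels, and it was not in carcinomas 2, 7 and 11. The part of cell composition in the milk protein levels was not tested.

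The genes most like the mean of the 8 across the 13 carcinomas were found by Spearman's rho over 12695 genes with a value on every array. They were Fkbp11 (rho 0.956), a chaperone gene of secretory cells, Acsl1 (0.934), which activates fatty acids, Cmas (0.929), an enzyme of sialic acid activation, Abcg2 (0.923), a transporter that secretes riboflavin into milk, Slco4c1 (0.918), Pigr (0.912), which carries immunoglobulin A across the epithelium, Me1 (0.896), Ndufb4 (0.896), Sanbr (0.896) and Aamdc (0.885). Their Pearson r was 0.719 to 0.904. These values describe 13 arrays that the genes share, and no test was made. Among the other listed milk genes the calcium pump gene Atp2b2 (0.868), Fabp3 (0.857), the phosphate transporter gene Slc34a2 (0.830) and the butyrophilin gene Btn1a1 (0.791) ranked highest of those named here. In the prolactin and Stat5 list Nr3c1 had 0.764, Elf5 0.654, Nfib 0.588, Stat5a 0.533 and Prlr -0.58.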

How the data were processed

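RNA of 13 rat mammary carcinomas and 6 normal glands was hybridised to Agilent single-colour arrays, and the scans were quantified in Agilent Feature Extraction (version 10.7.3.1 in the submitters' processing notes). The deposited scanner files give an intensity per spot (processed signal, background-corrected by that software per the file headers) with flags, and a deposited log2 table of the authors, whose normalization is not given in the sources used here, served as an alternative. Processed signals of spots were put on the log2 scale, reduced by the log2 of the 75th percentile of each array, and then averaged per probe without outlier spots. A probe was kept where at least 0.5 of its spots were well above background on 6 arrays or more, and the brightest probe stood for a gene, which left 12789 genes. Groups were compared with limma 3.58.1 in R 4.3.3 (lmFit, eBayes with trend), as a two-sided test, and p-values were adjusted by Benjamini-Hochberg across the 12789 genes, at a threshold of 0.05. Spread was tested with limma on absolute deviations from the group mean, scaled for group size. The scripts were tested on simulated data. Alternatives covered background correction (normexp, offset 50, on median spot and background signals), normalization, filters, probe choice, blocks, variance model and samples. Distinct arrays correlated at 0.978 or less over 12703 genes, so none was treated as a duplicate. The number of arrays limits the precision.

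The text names all 8 genes, from each other list its 3 largest changes past the threshold, Prlr, Stat5a, Stat5b, Elf5, Ccl21, Ccl19, Madcam1 and Chst4, the protein-coding genes of the casein cluster, and the 10 genes most like the mean of the 8. Krt14 and the milk genes named only by their rho were chosen after their values were seen. The genes and lists were chosen with earlier results of these data known.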

Additional observations from a re-analysis of the deposited data

How the results depend on the processing

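The number of the 8 genes lower in carcinomas, 3, became 7 with normexp (median of all genes -0.37), 5 without carcinomas 5 and 8 (an alternative added after seeing the data), 0 within each of slides 1, 2 and 3 (fits with 3, 2 and 1 normal glands, which called few genes of any kind), and 1 to 5 when 1 sample was left out. No alternative gave a higher gene. Every fitted change of the 8 genes was negative under all level alternatives. The number with a larger spread in carcinomas, 1, became 2 with quantile normalization and 0 in number-coded samples alone, with deviations from the group median, or without carcinomas 5 and 8, and it was 0 to 1 when 1 sample was left out. Replicate numbers 1 to 6 occur in both groups, but samples of the same number did not deviate together (correlations of -0.12 to 0.24), so the numbers were not taken as pairs. With the replicate block Csn1s2a also passed (-7.29), no gene had a larger spread, and the spread difference of Csn1s2b turned to -0.15. The causes of these shifts were not tested. Csn2 in carcinomas 1 and 5 and Csn1s2a and Csn1s2b in carcinoma 5 were not well above background, so their values there only bound the level from above. Csn1s2b in carcinomas 8 and 9 and Wap and Glycam1 in carcinoma 5 were near the floor too. Only 0.5 of their spots were well above background there. Normal gland 6, the lowest for Csn1s1, Csn2 and Lalba, sets the counts of carcinomas below the glands for these genes, and for Csn2 the count was 9 with it and 11 without it.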

Other observations

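Carcinoma 7, which held the milk protein genes at the level of the normal glands, stood apart in other epithelial genes. Its basal keratin gene Krt14 had a log2 value of -2.88, against 1.36 to 4.14 in the other carcinomas and 1.5 to 3.62 in normal glands. Of the other listed basal genes, Krt5 (-4.83), Krt17 (-5.09), Acta2 (-1.55), Myh11 (-2.17), Cnn1 (-5.22) and Mylk (0.12) were below every gland there. Tp63 (2.68) and Oxtr (-5.17) lay within the range of the glands, and Lamb3 (1.20) lay above it. The Prlr value of carcinoma 7 was -2.88, below the -2.09 to -1.43 of the normal glands. Prlr was 0.67 in carcinoma 5 and 1.14 in carcinoma 8, which had the lowest milk protein levels. Carcinoma 2 had the lowest Prlr (-4.43), with Csn1s1 at 6.96 and Csn2 at 2.36.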
